A study of Mus musculus with 8 samples.

Results

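The immediate-early and heat shock genes are the transcripts that cells raise first when they receive a growth signal or when their proteins unfold. They were chosen by symbol from the deposited gene table, 42 of its 35756 genes, of which 28 are immediate-early genes and 14 are heat shock genes. All 42 had enough counts to be tested among 14539 genes, with 58 to 90060 counts in a library. Cells labelled as tumor endothelial cells, from C57BL/6 Tie2-CreERT2;PPARβ/δ mice, were sequenced after Tamoxifen (4 libraries, Tax) or vehicle (4 libraries, oil). There was 1 library for each number in the labels, read as 1 mouse. The mice, matched for age and sex, received 33 mg/kg Tamoxifen per day or the sunflower oil carrier for 1 week, and 1 week later LLC1 Lewis lung carcinoma cells under the skin, whose tumors grew for 3 weeks. Tie2-CreERT2 is a recombinase driven by the Tie2 promoter, and with Tamoxifen it turns on the extra PPARβ/δ in vascular cells. Tumor pieces were digested for 45 min at 37 °C in 1 mg/mL collagenase A before the endothelial cells were held on CD31 MicroBeads.

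Both groups carried the Cre and the PPARβ/δ allele according to the methods, whereas the labels call the vehicle mice wild-type. Tie2-CreERT2 mice given Tamoxifen were not analysed here, so Tamoxifen itself, the active Cre and the overexpression cannot be told apart as sources of a difference. The labels and methods give no exact age of the mice. No tumor that had not been digested was analysed, so the part of the digestion in any level was not measured. In a bulk sample, fewer cells of a type and less RNA per cell cannot be told apart. Ppard, the overexpressed gene, was at 74.1, 88.3, 53.4 and 81.9 CPM (counts scaled to library size by the TMM method) in oil2453, oil2315, oil2653 and oil2368 and at 122, 70.9, 120.0 and 118 CPM in Tax2604, Tax2689, Tax2382 and Tax2455. Its log2 fold change was 0.53 ± 0.25 (edgeR adjusted p = 0.460), and the library labelled Tax2689 lay inside the vehicle range. Values per library are listed below in this same order, vehicle first, and log2 fold changes are Tamoxifen over vehicle, each ± its standard error in edgeR's fit.

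Immediate-early genes need no new protein to be transcribed. Kinase cascades activate factors that are already in the nucleus, among them SRF with its Elk partners and CREB, and the products are mostly short-lived transcription factors and inhibitors of the same signals. In endothelial cells, vascular endothelial growth factor is known to induce several of them, Egr3 and the Nr4a receptors included, and they are also known to respond to the enzymatic dissociation of tissues. Heat shock genes encode chaperones. Their regulator HSF1 is kept inactive by chaperones in unstressed cells, and when proteins unfold it binds repeats of the unit GAA and its complement TTC in the promoters of these genes.

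The vehicle library oil2453 was unlike the others in its overall composition. Totals ranged from 19730726 to 24884372 counts, and ribosomal protein genes took 20.6% of those of oil2453 and 4.52% to 10.3% elsewhere. The 20% of tested genes with the shortest listed length (up to 1668.6 bases) lay a median of 0.52 above its mean over the libraries on the log2 scale in oil2453, whereas the longest 20% lay at -0.49. Between the groups the shortest and the longest genes had median log2 fold changes of -0.35 and 0.23. The 16 pan-endothelial markers summed to 2607 to 4936 CPM with Tamoxifen and 414 to 1851 CPM with vehicle, and 14 of them were under an unadjusted p of 0.05, all higher with Tamoxifen. The 11 macrophage and monocyte markers tested summed to 3429 CPM in oil2453 and 6780 to 12545 CPM elsewhere, and hemoglobin genes took 0.474% of the counts of oil2453 and at most 0.0568% elsewhere. In every library the macrophage and monocyte sum was above the pan-endothelial sum, as at 9779 against 414 CPM in oil2315 and 7619 against 4936 CPM in Tax2604. The level of a member is thus that of a mixed sample and cannot be assigned to endothelial cells. The 4 epithelial genes Krt8, Krt18, Krt19 and Epcam, chosen to mark tumor cells, summed to 749 CPM in oil2453 and 48.4 to 174 CPM elsewhere. Their expression by the LLC1 cells themselves was not measured. The 10 mural cell markers summed to 35.0 to 128 CPM with vehicle and 248 to 448 CPM with Tamoxifen, and 8 of them were under an unadjusted p of 0.05, all higher with Tamoxifen. The neutrophil, fibroblast, T and NK cell and B cell markers overlapped between the groups in sum, with the T and NK and the B cell sums highest in oil2653 (318 and 583 CPM, compared to at most 94.4 and 96.6 CPM elsewhere). Leaving out oil2453 moved the log2 fold change of 30 of the 42 members by over 1.5 times or across 0, and those values are given with the members. Leaving out any 1 of the other libraries moved 11 to 20 members this far, and 37 of the 42 were moved by at least 1 of the 8. No share over all tested genes stands beside these counts, so nothing particular to the members is read from them. Of all tested genes, 47.9% lay farthest from their mean in oil2453.

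Both classes were abundant. On the deposited FPKM scale (fragments scaled to gene length and library size, which allows levels to be compared between genes), 31 of the 42 members were above the 90th percentile of the tested genes, 21 of them immediate-early and 10 heat shock genes. The highest mean FPKM over the 8 libraries belonged to Hsp90ab1, the constitutive cytosolic Hsp90, at 3010.0. Hspa8, the constitutive cytosolic Hsp70, followed at 1414 FPKM and Hspa5, the Hsp70 of the endoplasmic reticulum, at 1067 FPKM. Junb led the immediate-early genes with 1021 FPKM, followed by Socs3 with 913 and Ier3 with 808. At the other end, Egr3 had a mean of 6.46 FPKM and Hsf1 a mean of 23.5 FPKM.

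The immediate-early genes as a class overlapped between the groups. Their level, the mean over the 28 genes of log2 CPM relative to each gene's own mean over the 8 libraries, was -0.03, 0.17, -0.15 and 0.20 with vehicle and 0.17, 0.12, -0.32 and -0.18 with Tamoxifen. The highest library was oil2368 and the lowest Tax2382, and the group means lay closer than the spread between libraries (0.05 ± 0.17 with vehicle and -0.05 ± 0.24 with Tamoxifen, SD, n = 4 each). As a share of all counts, the 28 genes took 1.04% to 1.51%.

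**Figure D1:**
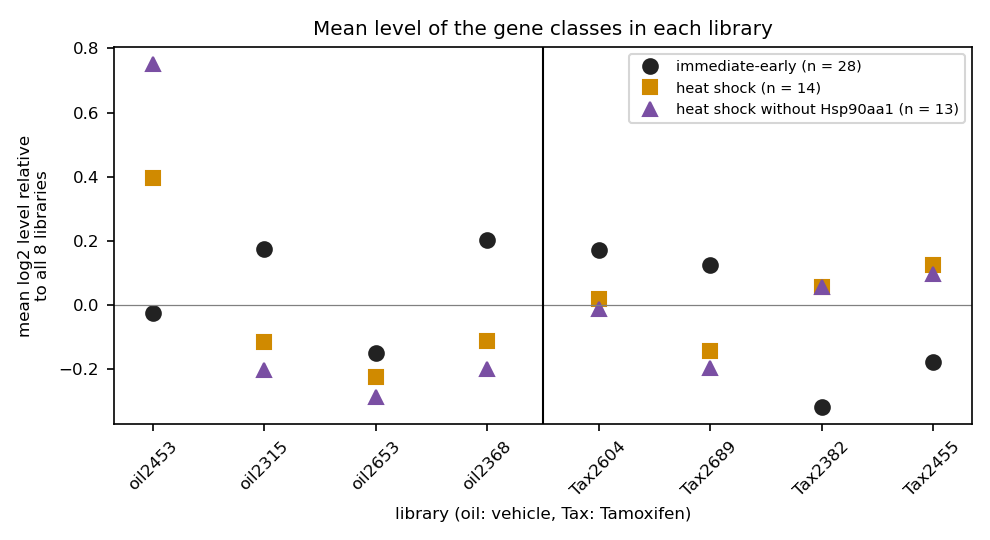
Level of the immediate-early genes (28) and of the heat shock genes (14, and 13 without Hsp90aa1) in each of the 8 libraries, as mean log2 CPM relative to each gene's mean over the libraries. The immediate-early level runs from -0.32 in Tax2382 to 0.20 in oil2368, and the heat shock level is at 0.40 in oil2453, or 0.75 without Hsp90aa1, and between -0.22 and 0.13 in the other 7 libraries.

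The heat shock genes were highest in 1 vehicle library. Their level was 0.40, -0.12, -0.22 and -0.11 with vehicle and 0.02, -0.14, 0.06 and 0.13 with Tamoxifen, so that only oil2453 lay clearly off the others (-0.01 ± 0.28 with vehicle and 0.01 ± 0.11 with Tamoxifen, SD, n = 4 each). In oil2453, Hsp90aa1 (-4.21) and Hspa1a (-0.73) lay below their own means and Hspa1b (0.11) near its mean, whereas the other members lay above theirs. Leaving out Hsp90aa1 alone, the member farthest from its mean there, the level of oil2453 was 0.75 and that of the other 7 libraries -0.29 to 0.10. The 14 genes took 0.747% to 1.07% of all counts, with the highest share in oil2453. The epithelial gene sum (749 CPM) and the erythroid marker sum (6278 CPM) were also highest in that library. The part of either in the heat shock level was not tested.

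Set against each other, the classes did not separate the groups. The immediate-early level minus the heat shock level was -0.42, 0.29, 0.07 and 0.31 with vehicle and 0.15, 0.27, -0.38 and -0.30 with Tamoxifen (0.06 ± 0.34 and -0.06 ± 0.32, SD, n = 4 each). Libraries with heat shock genes above immediate-early genes, relative to the average library, were oil2453, Tax2382 and Tax2455, 1 of the vehicle and 2 of the Tamoxifen group. In Tax2382 the difference came mostly from the low immediate-early level, in oil2453 from the high heat shock level and in Tax2455 from both. These levels are scores over chosen genes and were not tested.

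The immediate-early genes went both ways in oil2453, whereas most heat shock genes were high there. Of the 28 immediate-early genes, 9 were at their highest of the 8 libraries there and 10 at their lowest. Of the 14 heat shock genes, 10 were at their highest and 1, Hsp90aa1, at its lowest. Over all tested genes, oil2453 was the highest library for 30.2% and the lowest for 30.3%. The other library with many low immediate-early genes was Tax2382, which held the lowest value of 9 of the 28, against 17.4% of all tested genes.

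**Figure D2:**
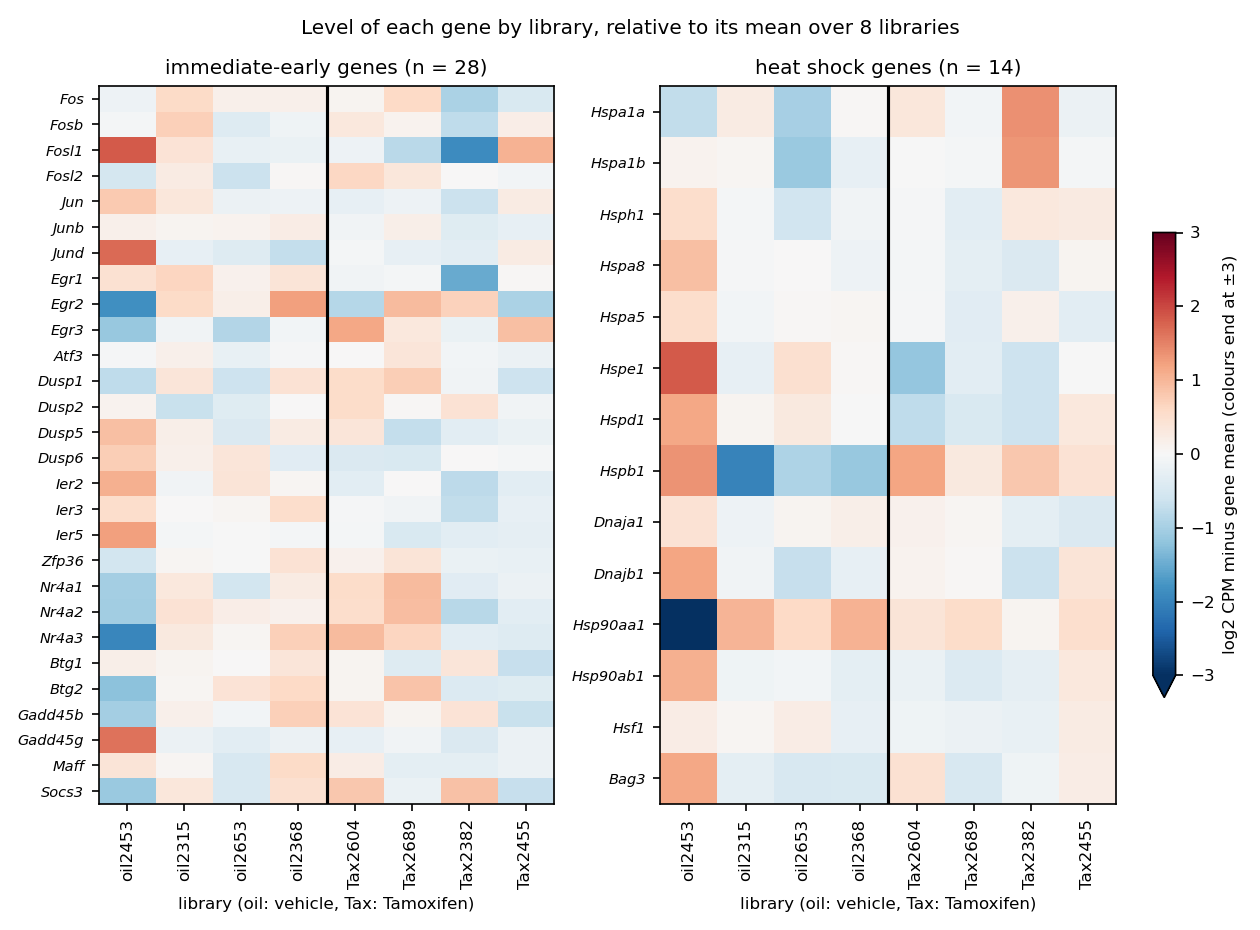
Level of each of the 42 genes (rows) in each library (columns, vehicle left and Tamoxifen right of the line), as log2 CPM minus the gene's mean over the 8 libraries, red for higher and blue for lower. In oil2453, 10 of the 14 heat shock genes are at their highest while Hsp90aa1 lies below the end of the colour scale at -3, and in Tax2382, 9 of the 28 immediate-early genes are at their lowest.

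No member passed the test between Tamoxifen and vehicle. None was under an adjusted p of 0.05 in the edgeR quasi-likelihood fit, adjusted by Benjamini-Hochberg over all genes tested, of which it called 0%. DESeq2, which gave Jund no adjusted p, called no member and 3.97% of the genes to which it gave one, and limma-voom called no member and 0% of all genes. The lowest adjusted p was 0.307 among the immediate-early genes, for Egr3, and 0.381 among the heat shock genes, for Hspe1. Before adjustment, 4 of the 42 members were under 0.05, Egr3 higher and Ier2, Hspe1 and Hspd1 lower with Tamoxifen, while 10.9% of all tested genes were. Leaving out 1 library gave 0 members without Tax2604, 1 without Tax2382, 2 without oil2653 and 3 to 5 without any of the others, whereas DESeq2 and limma-voom gave 6 and the fit with the trend over gene length removed gave 7. Over all genes tested, the count moved as well. It was 928 of 14776 without Tax2604, 1169 of 14815 without Tax2382, 1272 of 14774 without oil2653 and 1271 to 2082 without any of the others. Of 14539 genes it was 2026 with DESeq2, 1619 with limma-voom and 1628 with the length trend removed, compared to 1590 in the main fit. The median log2 fold change was -0.22 over the immediate-early genes (quartiles -0.50 and 0.22, 12 positive and 16 negative) and -0.17 over the heat shock genes (quartiles -0.35 and 0.03, 4 positive and 10 negative). Over all tested genes it was -0.03, with quartiles of -0.36 and 0.30.

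The libraries of the 2 groups did not overlap for 3 members, Egr1, Ier3 and Ier5, all of them lower with Tamoxifen. No overlap gives 0.0286, the smallest p of an exact two-sided permutation test over the 70 ways to divide the libraries, and 7.88% of the tested genes reached it in either direction. The Tamoxifen libraries were all lower for 2.01%. No heat shock gene was free of overlap.

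**Figure D3:**
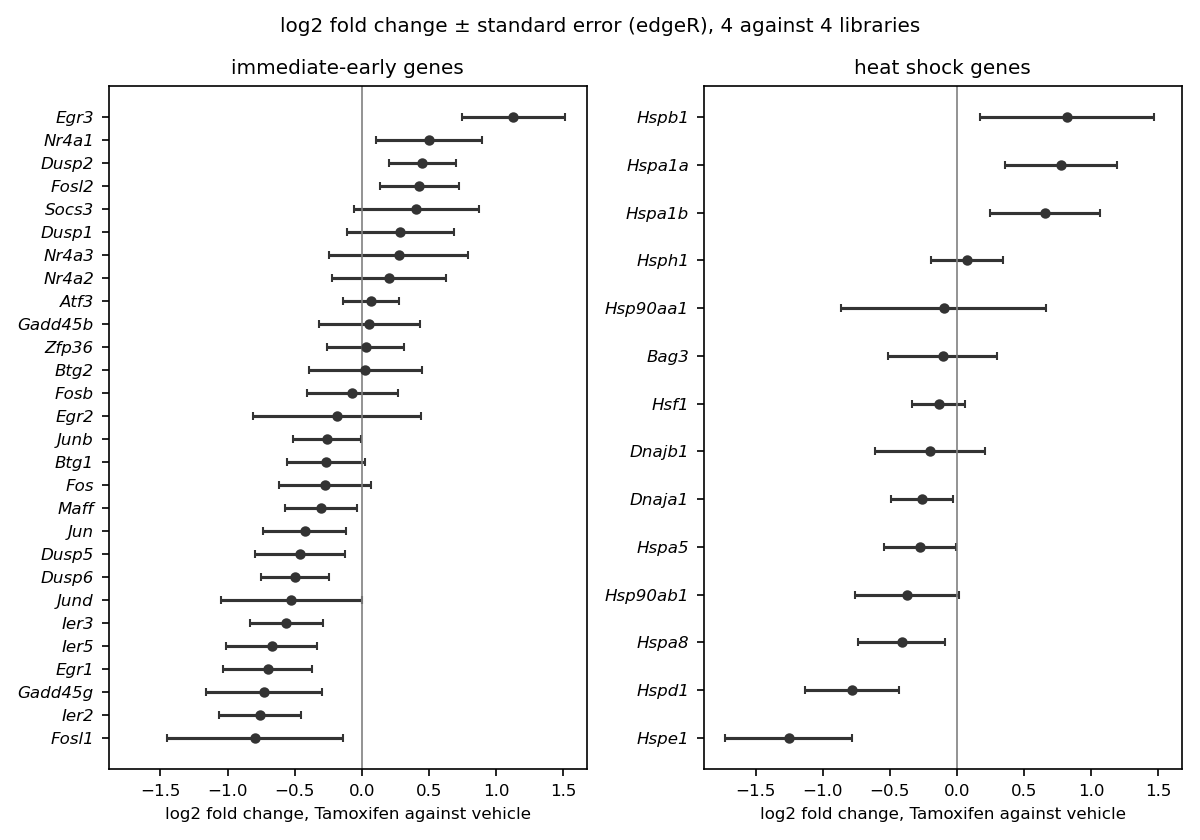
Log2 fold change of each member, Tamoxifen over vehicle, with its standard error from edgeR's quasi-likelihood fit, for all 8 libraries. The highest value is that of Egr3 (1.13) and the lowest that of Hspe1 (-1.25), and the widest error bar that of Hsp90aa1 (0.76).

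Among the AP-1 genes, whose Fos and Jun proteins pair to bind DNA, the libraries of the groups overlapped for every one. Fos stood at 307, 512, 380.3 and 384 CPM with vehicle and at 361, 518, 179 and 248 CPM with Tamoxifen, lowest in Tax2382 and highest in Tax2689 (log2 fold change -0.28 ± 0.34, and -0.08 without Tax2382 and -0.61 without Tax2689). Jun was at 1018, 746, 523 and 525 CPM with vehicle and 495, 525, 378 and 695 CPM with Tamoxifen. Its vehicle values were led by oil2453, the groups overlapped, and the log2 fold change was -0.43 ± 0.31, or -0.19 without that library. Junb, a partner of Fos proteins that often opposes Jun, had the most even level of the class at 2052, 1951, 1981 and 2176 CPM with vehicle and 1711, 2094, 1448 and 1559.9 CPM with Tamoxifen. Its log2 fold change was -0.26 ± 0.26.

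Fosl1 and Jund were the AP-1 genes that differed most between libraries. Fosl1, which encodes Fra-1, ranged from 51.8 CPM in Tax2382 to 685 CPM in oil2453, with 685, 257, 164 and 167 CPM in the vehicle libraries and 174, 109, 51.8 and 398 CPM with Tamoxifen. Its log2 fold change of -0.80 ± 0.66 was -0.09 without oil2453, -0.49 without Tax2382 and -1.49 without Tax2455. The epithelial gene sum was likewise highest in oil2453 (749 CPM), second in Tax2455 (174 CPM) and lowest in Tax2382 (48.4 CPM). The erythroid marker sum ranked these libraries in the same way (6278, 525 and 24.9 CPM). The fibroblast sum was highest in Tax2455 (3070 CPM), second in oil2453 (2932 CPM) and lowest in Tax2382 (413 CPM). The part of any of these sums in the level of Fosl1 was not tested. Ccdc85b overlaps Fosl1 on the opposite strand, shares 53.6% of the read-length stretches of its longest transcript and also had its most counts in oil2453 (6337, compared to 1075 to 1967 elsewhere), and without stated strand-specific counting the reads of the pair cannot be told apart. Jund, the steady member of the Jun family, was at 2307 CPM in oil2453 and at 428 to 839 CPM in the other libraries. Its log2 fold change was -0.52 in all libraries and 0.38 without oil2453, neither passing the test. Of the read-length stretches of the longest Jund transcript, 40.9% are shared with Gm11175, which had 0 counts in every library. The other AP-1 and related genes overlapped between the groups: Fosb with 524 to 1127 CPM for vehicle and 402 to 858 for Tamoxifen (log2 fold change -0.07, and -0.11 without oil2453), and Fosl2, which encodes Fra-2, with 446 to 825 and 663 to 1064 CPM. Atf3, a stress-induced partner of Jun, varied as little as Junb (235 to 307 and 244 to 353 CPM), and Maff, a small Maf protein without an activation domain, ranged over 129.9 to 269.9 and 148 to 213 CPM.

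The Egr genes, which encode zinc finger factors, had log2 fold changes of both signs. Egr1 was lower in every Tamoxifen library, with 370.3, 419.9, 296 and 354 CPM for vehicle and 251, 261, 94.7 and 279 CPM for Tamoxifen. The lowest vehicle library lay at 296 CPM and the highest Tamoxifen library at 279 CPM, and Tax2382 stood well below the rest of its group. The log2 fold change of Egr1 was -0.70 ± 0.33 (unadjusted p of 0.0629, edgeR adjusted p = 0.464), and -0.45 without Tax2382. Egr3 went the other way at a much lower level, with 3.5, 7.24, 4.16 and 7.31 CPM for vehicle and 17.6, 9.74, 6.80 and 14.5 CPM for Tamoxifen. Of its Tamoxifen libraries, 3 lay above all vehicle libraries and Tax2382 lay inside their range. Egr3 had the smallest p of all members, with a log2 fold change of 1.13 ± 0.38 (unadjusted p of 0.0155, edgeR adjusted p = 0.307), and 0.97 without oil2453. The pan-endothelial markers moved in the same direction, at 414 to 1851 CPM and 2607 to 4936 CPM in sum as given above, as did the mural markers, at 35.0 to 128 CPM and 248 to 448 CPM, and the part of either in the value of Egr3 was not tested. Egr2, a factor of myelin and of T cells, varied widely within both groups (16.3, 87.8, 65.8 and 139 CPM and 32.5, 113, 95.5 and 30.5 CPM), was lowest in oil2453 and had a log2 fold change of -0.19 ± 0.62, or -0.52 without that library.

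**Figure D4:**
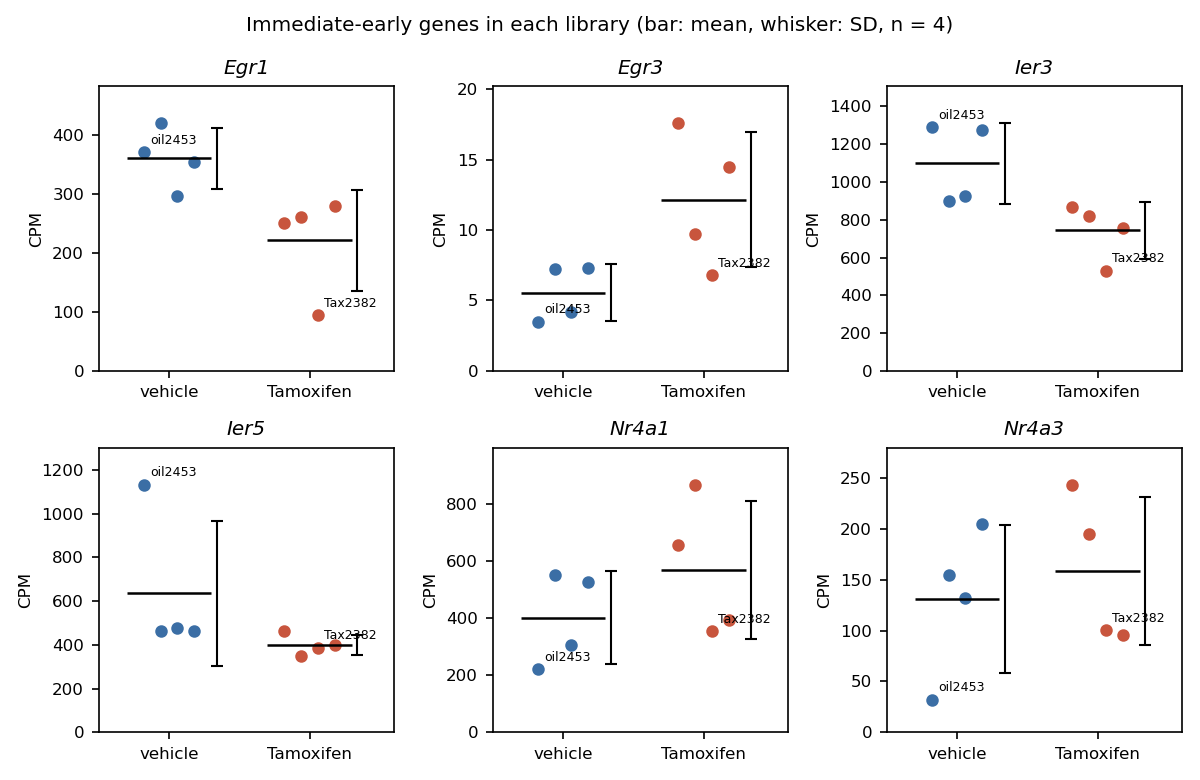
CPM of Egr1, Egr3, Ier3, Ier5, Nr4a1 and Nr4a3 in each library by group, with the mean as a bar and the SD as a whisker (n = 4 per group). For Egr1, Ier3 and Ier5 all Tamoxifen points lie below all vehicle points, for Ier5 only by 462 against 465 CPM, and for Egr3 all but Tax2382 lie above them.

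The Nr4a genes encode orphan nuclear receptors that CREB is known to induce, and all 3 carry repeats of the CREB half-site in the promoter. The half-site TGACG or its complement CGTCA occurs 4 times in the RefSeq window of each, from 250 bases before to 50 bases after the start, whereas 20.8% of all 32851 such windows of the genome hold at least 1 and 0.231% hold at least 4. They are shown because these are the only members with 4, in capitals within the stretch that holds them (GRCm38.p6, 5′ to 3′ on the strand of the gene).
Nr4a1, chr15:101266598-101266825, plus strand: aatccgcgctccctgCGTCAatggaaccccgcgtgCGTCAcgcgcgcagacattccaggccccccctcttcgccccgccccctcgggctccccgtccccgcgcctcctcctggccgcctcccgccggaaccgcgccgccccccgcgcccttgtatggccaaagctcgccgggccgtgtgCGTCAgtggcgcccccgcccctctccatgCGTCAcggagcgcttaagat
Nr4a2, chr2:57124095-57124218, minus strand: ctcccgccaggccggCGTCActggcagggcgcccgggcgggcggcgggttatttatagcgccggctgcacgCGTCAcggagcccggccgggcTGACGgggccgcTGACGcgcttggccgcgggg
Nr4a3, chr4:48045059-48045167, plus strand: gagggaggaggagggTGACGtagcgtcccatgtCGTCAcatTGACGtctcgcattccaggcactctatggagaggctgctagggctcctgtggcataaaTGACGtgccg
A match of letters is a description of the window and not a binding site measured in these cells.

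Across the libraries, all 3 Nr4a genes were lowest in oil2453. Nr4a1, also known as Nur77, was at 222, 553, 307 and 529.6 CPM with vehicle and 658, 869.6, 356 and 395 CPM with Tamoxifen. Nr4a3 stood at 32.1, 155, 132 and 205 CPM with vehicle and 243, 195, 100.5 and 95.4 CPM with Tamoxifen, and Nr4a2 at 46.6, 129, 109.7 and 105 and 137, 183, 53.5 and 76.4 CPM. In each case Tax2604 and Tax2689 were the higher Tamoxifen libraries, and Tax2382 and Tax2455 lay among the vehicle libraries. The log2 fold changes were 0.50 ± 0.40 for Nr4a1, 0.20 ± 0.43 for Nr4a2 and 0.28 ± 0.52 for Nr4a3, and without oil2453 they were 0.31, -0.02 and -0.04. Without Tax2689 they were 0.20, -0.15 and 0.14, and without Tax2604 they were 0.43, 0.10 and 0.001.

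The feedback inhibitors of the same signals also overlapped between the groups. Dusp genes encode phosphatases that switch off MAP kinases, Dusp5 and Dusp6 those of the ERK type. Dusp1 lay at 346 to 799 CPM with vehicle and 384 to 986 CPM with Tamoxifen, and Dusp2 at 91.8 to 159 and 136 to 214 CPM. Dusp5 ranged over 251 to 628 and 206 to 435 CPM and Dusp6 over 97.8 to 205 and 89.8 to 124 CPM, both highest in oil2453. Their log2 fold changes were 0.29 for Dusp1, 0.45 for Dusp2, -0.46 for Dusp5 and -0.50 for Dusp6, with standard errors of 0.25 to 0.40, and without oil2453 they were 0.11, 0.57, -0.18 and -0.30. Socs3, an inhibitor of cytokine signaling through JAK and STAT, was at 409, 1119.7, 638 and 1233 CPM with vehicle and 1548, 772, 1636 and 545 CPM with Tamoxifen. It had the second highest FPKM of the class, and its Tamoxifen libraries lay within the vehicle range or above it (log2 fold change 0.41 ± 0.47, and 0.17 without oil2453). Zfp36, whose product tristetraprolin leads AU-rich mRNAs to decay, was at 513 to 1018 CPM and 644 to 984 CPM, with a log2 fold change of 0.03 in all libraries and -0.12 without oil2453.

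SRF binds the CArG box, which 3 of the 24 immediate-early genes with a promoter entry hold, Egr2, Dusp5 and Zfp36, and none of the 10 heat shock genes with one. Egr1, Egr3, Fosl1 and Ier2 had no entry, and boxes more than 250 bases before the start were not searched in any gene. The absence of a box here is therefore not evidence that a gene lacks one. Over all windows, counted singly and not per gene, 1.63% hold a CArG box. The stretches of Dusp5, the only member with 2, and of Zfp36 are shown with the boxes in capitals (GRCm38.p6).
Dusp5, chr19:53529048-53529097, plus strand: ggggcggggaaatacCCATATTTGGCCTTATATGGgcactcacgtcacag
Zfp36, chr7:28379267-28379296, minus strand: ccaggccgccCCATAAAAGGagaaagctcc
Of these, Dusp5 was highest in oil2453, at 2.15 times the median of the other libraries, and Zfp36 lowest there, at 0.656 times.

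The Ier genes had negative log2 fold changes, without passing the test. Ier2, a nuclear protein of immediate responses, was at 374, 164, 234 and 186 CPM with vehicle and 143, 178, 103 and 142 CPM with Tamoxifen, so that the groups overlapped between 164 and 178 CPM. It had a log2 fold change of -0.76 ± 0.30 (unadjusted p of 0.0318, edgeR adjusted p = 0.417), and of -0.45 without oil2453 (unadjusted p of 0.0838). Ier3, which promotes cell survival under stress, was at 1288, 901, 925 and 1275 CPM with vehicle and 869.7, 821, 530.0 and 754 CPM with Tamoxifen, with no overlap and a log2 fold change of -0.56 ± 0.27 (edgeR adjusted p = 0.464). Ier5, which is known to promote the activity of HSF1, was at 1132, 465, 479 and 465 CPM with vehicle and 462, 349, 388 and 398 CPM with Tamoxifen. Its vehicle mean was carried by oil2453, and its log2 fold change of -0.67 ± 0.34 (edgeR adjusted p = 0.478) was -0.23 without that library. Ier2 and Ier3 belong to the 8 members among the shortest 20% of genes, whose median log2 fold change was -0.35. With the trend over gene length removed from each library, the values were -0.63 for Ier2, -0.39 for Ier3 and -0.82 for Ier5.

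Growth arrest genes filled the rest of the class and overlapped between the groups. Btg1 and Btg2, which slow proliferation and bind the deadenylase complex, were at 968 to 1228 and 91.6 to 326 CPM with vehicle and at 596 to 1236 and 163 to 391 CPM with Tamoxifen. Gadd45b, a stress sensor upstream of p38 and JNK, ranged over 81.8 to 270.1 and 103 to 219 CPM and was lowest in oil2453. With all libraries the log2 fold changes were 0.03 for Btg2 and 0.06 for Gadd45b, and without oil2453 they were -0.23 and -0.18. The relative of Gadd45b, Gadd45g, was at 124 CPM in oil2453 and at 29.8 to 37.5 CPM in the other 7 libraries, so that its log2 fold change of -0.73 ± 0.43 was 0.001 without that library.

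The heat shock genes share the HSF1 motif more often than the immediate-early genes. A GAA unit and a TTC unit 2 bases apart, written GAANNTTC and searched also with the units in the opposite order (each is its own complement), occurred in the windows of 8 of 10 heat shock genes with an entry and 3 of 24 immediate-early genes, compared to 15.1% of all windows. An alternating triple of such units occurred in 3 heat shock genes, Hsph1, Hspe1 and Hspd1, in no immediate-early gene and in 0.603% of all windows. A member was counted when any of its windows held the motif, whereas the shares are of single windows. The windows of Hspe1 and Hspd1 overlap and those of Hspa1a and Hspa1b are nearly identical, so the same sites were counted in both genes of each pair. The genes were chosen as heat shock genes, so this describes the list and is not a result about these samples.

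Hspe1 and Hspd1, the mitochondrial chaperonin pair, had the lowest log2 fold changes of the heat shock genes, without passing the test. They are neighbours on chromosome 1 (Hspe1 at chr1:55088132-55091307 on the plus strand, Hspd1 at chr1:55077835-55088243 on the minus strand, GRCm38) and start from a common promoter, whose windows share 285 bases. The stretch with their HSF1 units in capitals, which serves both genes, is 4 alternating units long (GRCm38.p6).
Hspe1, chr1:55088053-55088082, plus strand: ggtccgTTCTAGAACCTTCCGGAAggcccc
The units lie at positions -89 to -72 from the RefSeq start of Hspe1, and the stretch lies in the first exon of a longer Hspd1 transcript in GENCODE M21.

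Hspe1 was at 640.1, 149, 249 and 182 CPM with vehicle and 79.5, 141, 116 and 175 CPM with Tamoxifen. Hspd1 was at 660.3, 310.3, 363 and 291 CPM with vehicle and 174, 215, 189.8 and 364 CPM with Tamoxifen. For both genes oil2453 was the highest and Tax2604 the lowest library, and the groups overlapped through Tax2455. The log2 fold change of Hspe1 was -1.25 ± 0.47 (unadjusted p of 0.0251, edgeR adjusted p = 0.381) and that of Hspd1 was -0.79 ± 0.35 (unadjusted p of 0.0499, edgeR adjusted p = 0.457). Without oil2453 they were -0.59 and -0.44. Per length, the ratio of Hspd1 to Hspe1 FPKM was 0.705 in oil2453 and 0.997 to 1.496 in the other 7 libraries, and Hspe1, with a listed length of 964 bases, is among the shortest 20% of genes, which were high in oil2453. The part of gene length was not tested beyond the fit with its trend removed, in which Hspe1 was at -0.97 and Hspd1 at -0.80. The listed bounds of Hspe1 and Hspd1 overlap on opposite strands. Without stated strand-specific counting, reads from the overlap cannot be told apart.

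**Figure D5:**
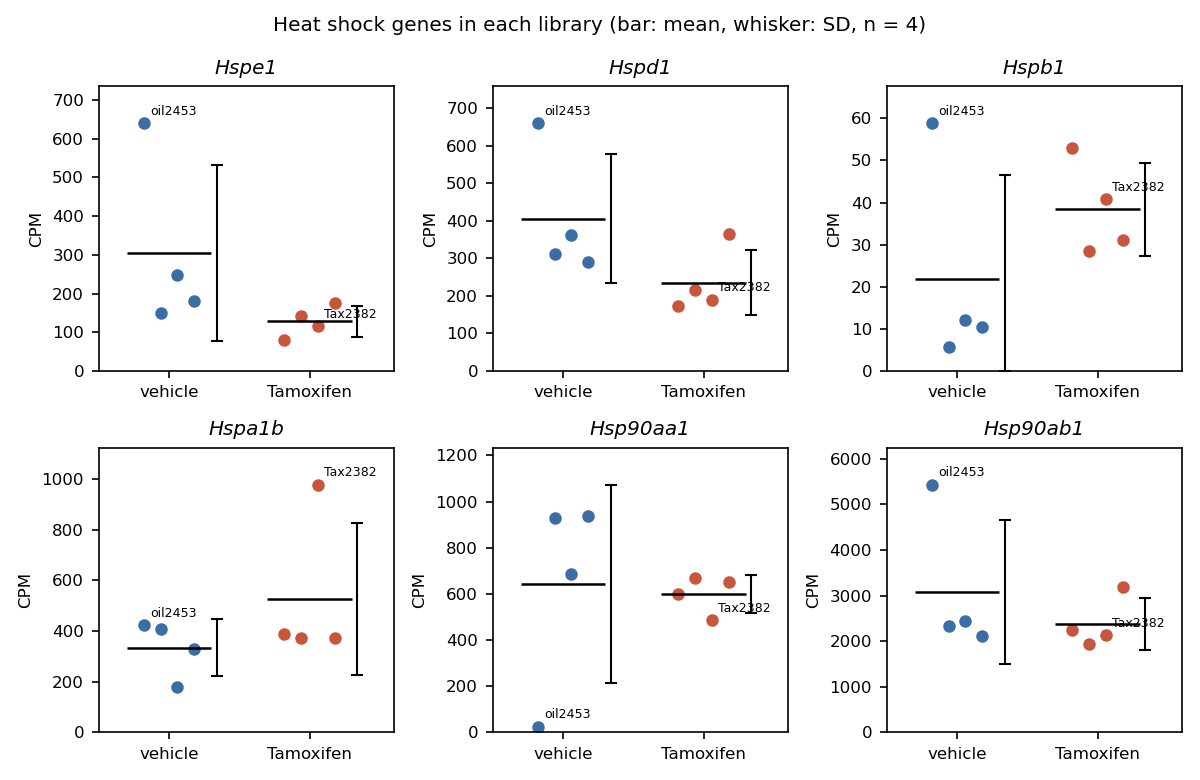
CPM of Hspe1, Hspd1, Hspb1, Hspa1b, Hsp90aa1 and Hsp90ab1 in each library by group, with the mean as a bar and the SD as a whisker (n = 4 per group, the lower vehicle whisker of Hspb1 is cut at 0). The vehicle library oil2453 is the highest point for Hspe1, Hspd1, Hspb1 and Hsp90ab1 and the lowest for Hsp90aa1 (24.6 CPM), and Tax2382 is the highest for Hspa1b (978 CPM).

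Hspa1a and Hspa1b, the inducible cytosolic Hsp70 genes, were highest in 1 Tamoxifen library. Both lie on chromosome 17 (Hspa1a at chr17:34969190-34972156 and Hspa1b at chr17:34956436-34959238, minus strand, GRCm38), and their promoter windows are identical at 296 of 300 bases. They are shown because the HSF1 motif in capitals and the bases around it are the same in both.
Hspa1a, chr17:34972223-34972290, minus strand: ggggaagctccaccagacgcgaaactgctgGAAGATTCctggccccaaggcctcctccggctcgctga
Hspa1b, chr17:34959305-34959372, minus strand: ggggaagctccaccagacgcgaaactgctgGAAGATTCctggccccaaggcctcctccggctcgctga
Their longest transcripts share 42.2% of the read-length stretches of Hspa1a and 44.8% of those of Hspa1b, so the division of reads between them is uncertain.

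Hspa1a was at 146, 289, 122 and 247 CPM with vehicle and 307, 229, 624 and 216 CPM with Tamoxifen. Hspa1b was at 423, 408, 180.2 and 329.6 CPM with vehicle and 390.1, 372, 978 and 372 CPM with Tamoxifen. In both, Tax2382 stood above all other libraries and the other 3 Tamoxifen libraries lay within the vehicle range or just above it. The log2 fold change was 0.78 ± 0.42 for Hspa1a (edgeR adjusted p = 0.490) and 0.66 ± 0.41 for Hspa1b (edgeR adjusted p = 0.537), and without Tax2382 they were 0.32 and 0.17. Tax2382 was at the same time the lowest library for Fos, Jun, Egr1, Ier2 and Ier3. It was the highest library in the summed macrophage and monocyte markers (12545 CPM) and the lowest in the fibroblast markers (413 CPM, compared to 1090 to 3070 elsewhere), whose part in these values was not tested.

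Hspb1, the small heat shock protein that binds unfolded proteins and actin filaments, was the only member whose call turned on 1 library. It was at 58.9, 5.71, 12.04 and 10.5 CPM with vehicle and at 53.0, 28.4, 40.9 and 31.2 CPM with Tamoxifen. The vehicle library oil2453 lay above all Tamoxifen libraries, and the other 3 vehicle libraries lay below all of them. The log2 fold change was 0.82 ± 0.65 (edgeR adjusted p = 0.637) in all libraries and 2.04 ± 0.33 (edgeR adjusted p = 0.0382) without oil2453, where 256 genes were called, 1.72% of those tested. The summed pan-endothelial markers, in the same order, were 1851, 414, 750.1 and 1171 CPM with vehicle and 4936, 2971, 4418 and 2607 CPM with Tamoxifen, all 16 of 16 tested, and the mural markers were 82.3, 35.0, 113 and 128 CPM and 435, 448, 248 and 310.3 CPM. The part of either in the level of Hspb1 was not tested. Its window holds 2 motifs in capitals, shown for comparison with the single one of the Hspa1 genes (GRCm38.p6).
Hspb1, chr5:135887782-135887849, plus strand: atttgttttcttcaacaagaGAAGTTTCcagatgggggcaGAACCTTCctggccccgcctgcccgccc
The gene itself lies at chr5:135887919-135889563 (GRCm38), and 38.6% of the stretches of its transcript are shared with the pseudogene Hsp25-ps1, which had 0 or 1 counts in each library.

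The Hsp90 genes went apart in oil2453. Hsp90ab1, the constitutive form, was at 5431, 2334, 2437 and 2107 CPM with vehicle and 2243, 1937, 2125 and 3195 CPM with Tamoxifen. Hsp90aa1, the stress-inducible form, was at 24.6, 928, 685 and 939 CPM with vehicle and 599, 671, 485 and 650.0 CPM with Tamoxifen. In 7 libraries the ratio of Hsp90aa1 to Hsp90ab1 CPM was thus 0.203 to 0.446, and in oil2453 it was 0.0045. The low value rests on 408 counts, compared to 11423 to 20545 in the other libraries, and on the FPKM scale it was 15.8, compared to 387 to 838. Of the 2036 genes with a mean of at least 100 CPM, only Hsp90aa1 and Rrp1 were more than 10 times lower in oil2453 than in every other library, and 3 hemoglobin genes were more than 10 times higher. In the other 7 libraries no gene stood that far off.

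Of the stretches of the longest Hsp90aa1 transcript, 41.3% are shared with other genes, 34.4% with the processed copy Gm12346. That copy had 2 counts in oil2453 and 12 to 36 in the other libraries, and the part of shared sequence in the low value was not tested. Neither gene was called between the groups. The log2 fold change was -0.10 ± 0.76 for Hsp90aa1 and -0.37 ± 0.39 for Hsp90ab1, and without oil2453 the values were -0.50 and 0.06, neither called. With limma-voom and on log2(FPKM + 1) the value of Hsp90aa1 was positive, at 0.85 and 0.87, without a call. The gene lies at chr12:110690605-110702728 (GRCm38).

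The constitutive Hsp70 chaperones overlapped between the groups. Hspa8 was at 3419, 1794, 1865 and 1669 CPM with vehicle and 1759.9, 1498, 1356 and 1953 CPM with Tamoxifen, highest in oil2453 and lowest in Tax2382. Hspa5 was at 1837, 1204, 1308 and 1315 CPM with vehicle and 1239.6, 998, 1423 and 1018 CPM with Tamoxifen, with less than 2 times between its lowest and highest library. Their log2 fold changes of -0.41 ± 0.32 and -0.28 ± 0.27 were -0.11 and -0.12 without oil2453.

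The partners of Hsp70 overlapped between the groups as well. Hsph1 and Bag3 help Hsp70 release its nucleotide, and Bag3 also leads damaged proteins to autophagy. Hsph1 was at 94.9 to 203 CPM with vehicle and 114 to 174 CPM with Tamoxifen, and Bag3 at 75.2 to 234 and 75.1 to 145 CPM. Dnaja1 and Dnajb1, which deliver unfolded proteins to Hsp70, were at 288 to 433 and 131 to 479.7 CPM with vehicle and at 238 to 352 and 135 to 278 CPM with Tamoxifen. All 4 were highest in oil2453, Bag3 at 2.73 times and Dnajb1 at 2.41 times the median of the other libraries. With all libraries their log2 fold changes were 0.07 for Hsph1, -0.11 for Bag3, -0.26 for Dnaja1 and -0.20 for Dnajb1, and without oil2453 they were 0.30, 0.47, -0.15 and 0.35, none called. Hsf1, the regulator itself, was even across the libraries, at 55.2, 49.1, 54.8 and 39.5 CPM with vehicle and 43.1, 41.4, 40.5 and 55.7 CPM with Tamoxifen (log2 fold change -0.14 ± 0.20, and -0.08 without oil2453). Its RNA does not report the activity of the protein, which is controlled after translation.

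No gene around the 2 classes was called, but edgeR called 0% of all genes tested, so this says nothing particular to these lists. Under an unadjusted p of 0.05 in edgeR were 10.9% of all genes tested. Of the 25 genes of the mitogen kinase and SRF route, which carry growth signals to the immediate-early promoters, none was under an adjusted or an unadjusted p of 0.05 in edgeR, and their median log2 fold change was 0.12. The smallest p belonged to the kinase Rps6ka3 (0.61) and the SRF partners Elk1 (0.38) and Elk3 (0.39). Of 38 other early response genes, 1 was higher and 1 lower at an unadjusted p of 0.05, Per1 of the circadian clock at 0.53 and the antiproliferative Tob1 at -0.58, and the median was -0.10. Sgk1, a kinase induced by serum and glucocorticoids, had a log2 fold change of -0.92 ± 0.42 and was at 945 CPM in oil2453, compared to 203 to 413 CPM elsewhere.

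Most other chaperones had negative log2 fold changes. Of 34 other cytosolic chaperones and co-chaperones, 31 had a negative log2 fold change (median -0.36), 3 were lower and 1 higher at an unadjusted p of 0.05, and none passed the test. Cacybp (-0.78) and Ahsa1 (-0.67), both partners of Hsp90, were among the lower ones, and Dnaja4 was the higher one at 1.52. Of 8 mitochondrial chaperones and proteases, all 8 were negative (median -0.28), with Clpp at -0.96, Hspa9 at -0.65 and Clpx at -0.34, and of 24 genes of endoplasmic reticulum stress, 15 were negative (median -0.14), with the regulator Atf4 at -1.01. The level of these 3 lists in oil2453 was 0.74, 0.58 and 0.27, compared to -0.23 to 0.06, -0.44 to 0.10 and -0.19 to 0.19 in the other libraries. Clpp, Hspa9 and Atf4 were highest in oil2453, at 84.3, 710 and 1087 CPM. Elsewhere they were at 16.1 to 39.9, 217 to 388 and 203 to 426 CPM. Cacybp, Ahsa1 and Clpx were highest in oil2453 too, so these negative values rest in part on that library. Over all tested genes the median was -0.03, with 1075 genes higher and 515 lower at an unadjusted p of 0.05.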

How the data were processed

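According to the methods, RNA of CD31-selected tumor endothelial cells was made into NEBNext libraries without a stated strand setting and sequenced as paired-end reads. The authors removed reads with adapters, poly-N or low quality and counted the rest per gene with HTSeq 0.6.1, and the deposited counts are whole numbers without normalization. The deposited FPKM values were calculated by the authors from these counts and the gene length, and were used here for levels and as an alternative. Per the submitters' processing notes the tools included Bowtie2 2.2.3 and TopHat2 2.0.12 with the build mm8, but the positions of all 42 members overlap GENCODE M21 (GRCm38), 23 of them with identical bounds. The table's own group means, fold changes and p-values were not used.

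Counts of 19730726 to 24884372 per library were fitted with edgeR 4.0.16 (R 4.3.3) by its quasi-likelihood test, with TMM factors, its filter for a minimum count of 10, no covariate and p-values adjusted by Benjamini-Hochberg over 14539 genes. The study used DESeq, which was not run here. Alternatives were median-of-ratios factors, library size alone, no filter, 10 counts in every library, DESeq2 1.42.0, limma-voom 3.58.1, limma-trend on log2 FPKM with a pseudocount of 1 or 0.1 (genes above 1 in at least 4 libraries), and leaving out each library. An offset for the trend over gene length in each library was added after seeing the data. Class levels used log2 CPM with a prior count of 2. The fits were run on simulated counts with known differences as a check of the code. Their power to call differences of the sizes seen here is not given.

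The members and lists were chosen with earlier results of these data known. Values in every library are given, in each class, for the 5 members with the smallest p (as none passed), the 3 with the highest mean FPKM, the 3 with the largest ratio of highest to lowest library and Fos, Jun, Egr1, Hspa1a, Hspa1b and Hsf1, and for Nr4a1 and Nr4a2 in addition, chosen after their values were seen. From each pathway list up to 3 genes with the smallest p are named. Marker lists covered endothelial, mural, fibroblast, macrophage, neutrophil, T and NK, B, epithelial and erythroid cells. Promoter sequences are from RefSeq (GRCm38.p6), where 34 of the 42 members had an entry. Those without one were Egr1, Egr3, Fosl1, Ier2, Hspa8, Hsp90aa1, Hsp90ab1 and Hsf1. Shared stretches are those of the shorter of the stated read lengths that also occur in transcripts of other genes. Members with such stretches not described above were Hspa8 (26.7%), Hspd1 (22.1%), Dnaja1 (21.8%), Dusp5 (18.0%), Jun (3.52%) and Btg1 (0.041%). P-values set the difference between the groups against the spread between these libraries.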

Additional observations from a re-analysis of the deposited data

Results flagged for a closer look

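In a group of 4 libraries, a value is listed here when its gap to the nearest other library takes up more of the group's range than the 95% critical value of Dixon's test. Of 88 such tests over the members and class levels, 9 met this, where chance gives about 1 in 20, and 7 of the 9 concerned the vehicle library oil2453. Over all 14539 tested genes, 10.2% met it in the vehicle group, 8.06% through oil2453, and 6.07% met it in the Tamoxifen group, 2.06% through Tax2382.

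In oil2453, Jund was at 2307 CPM (428 to 592 in the other vehicle libraries), Ier5 at 1132 CPM (465 to 479), Gadd45g at 124 CPM (32.3 to 35.6), Hspa8 at 3419 CPM (1669 to 1865), Hspb1 at 58.9 CPM (5.71 to 12.04), Hsp90ab1 at 5431 CPM (2107 to 2437) and Bag3 at 234 CPM (75.2 to 85.9). All 7 were higher than in the rest of the group. Hsp90aa1 was the lowest of the group there, but its gap did not reach the limit. For genes the gaps were taken in CPM, a scale on which a low value reaches the limit less easily than on the log2 scale.

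In the Tamoxifen library Tax2382, Egr1 was low at 94.7 CPM (251 to 279 in the other Tamoxifen libraries) and Hspa1b was high at 978 CPM (372 to 390.1).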

How the results depend on the processing

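No immediate-early member was called under any alternative, and the only heat shock member called was Hspb1, without oil2453. Leaving out each library gave 0 to 256 genes called over the whole table (256 without oil2453, 31 without oil2368), 0 to 1 heat shock members called, 3 to 5 members without overlap (5 without oil2315, Tax2689 or Tax2455), and a log2 fold change of Gadd45g of -0.92 to 0.0012 (0.0012 without oil2453). No overlap is reached more easily with 1 library fewer, and its share over all genes was not calculated under any alternative, so nothing is read from these counts of members. Over the whole table, 177 genes were called with library size alone, 68 without the filter, 574 by DESeq2, 317 on log2(FPKM + 1) and 221 on log2(FPKM + 0.1), compared to 0 in the main analysis. The cause was not tested. The median log2 fold change of the immediate-early genes was -0.014 on log2(FPKM + 0.1), compared to -0.22, and 1 member was without overlap with library size alone. Of 714 member values over the alternatives, 712 kept their side of the threshold and, where it exceeded its standard error, their direction, and 43 values in 15 members changed sign, none of them called and all but that of Gadd45g from a main value below its standard error. The changes of sign that ended farthest from 0 were those of Hsp90aa1 from -0.10 to 0.85 with limma-voom, 0.87 on log2(FPKM + 1) and 0.89 on log2(FPKM + 0.1), and those of Bag3 (from -0.11 to 0.47), Jund (from -0.52 to 0.38) and Dnajb1 (from -0.20 to 0.35) without oil2453. The offset for gene length moved the median of all genes to -0.14. The median of the heat shock genes was -0.01 without oil2453, with 7 positive and 7 negative. No paired analysis was possible because the groups share no replicate numbers. Depth was lowest for Egr3, with 58 to 378 counts in a library.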
